A study of Homo sapiens with 15 samples.

Results

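CBLN2, TENM1, LRRN1, EPHA7, CHRNA2, GRIN3A and SYP are 7 genes best known from neurons, and all 7 had their highest mean RNA level of the series in LNCaP cells carrying a hairpin against SUZ12. They are 7 of the 26443 genes with values in the study, and they were chosen by name because their level with that hairpin (group shsuz12) was far above the level with the control vector (pLKO). The values of the 7 genes in shsuz12 are therefore given below as a description, with no test. Tests of the 7 genes concern the other hairpins, and shsuz12 is tested against pLKO for genes outside the 7. LNCaP is an established, androgen-responsive human prostate cancer cell line with a luminal epithelial character. The cells were of the genotype labelled WT, were kept in RPMI medium with serum, and had been exposed to lentivirus for 4 to 5 days. There were 5 groups with 3 libraries each: the control vector pLKO, and hairpins against PALI1 (shPALI1), G9a (shG9a), JARID2 (shJarid2) and SUZ12 (shsuz12). The labels name 1 hairpin per target and do not say whether the 3 libraries of a group came from separate cultures, so p-values reflect variation among the libraries at hand, part or all of which may be technical.

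SUZ12 is a core subunit of PRC2, which puts methyl groups on a lysine of histone H3 and so makes a mark found at the silent promoters of many developmental and neuronal genes in cells that are not neurons. JARID2 and PALI1 are accessory proteins of PRC2, the latter made from the LCOR and C10orf12 locus, and G9a, the product of EHMT2, methylates a different lysine of the same histone. The 7 genes encode parts of different steps of neuronal communication. CBLN2 is a secreted organiser of synapses, TENM1 and LRRN1 are membrane proteins of cell contact, EPHA7 is a guidance receptor for ephrins, CHRNA2 and GRIN3A are subunits of ion channels opened by transmitters, and SYP is synaptophysin, a membrane protein of synaptic vesicles that pathologists also use as a marker of neuroendocrine tumours.

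Levels are given in RPKM, reads scaled to gene model length and library size, which allows levels of genes of different length to be compared. Library sums of RPKM ran from 250161 to 318754, highest in replicate 3 of shJarid2, so equal values in different libraries are not equal shares of the RNA. Depth, recovered from the values, was 10.56 to 19.36 M reads per library. Each targeted gene was lowest on average with its own hairpin: SUZ12 was at 12.5% of its pLKO mean in shsuz12, EHMT2 at 25.7% in shG9a, JARID2 at 18.3% in shJarid2, and C10orf12 at 23.8% and LCOR at 60.0% in shPALI1. SUZ12 itself was at 82.9% to 93.6% of pLKO in the other knockdowns. The other targeted genes moved more outside their own hairpin. C10orf12 was at 69.9% and EHMT2 at 71.5% of pLKO in shJarid2, and JARID2 at 141% and LCOR at 158% in shsuz12. Replicate 3 of shJarid2 stood apart from its group, with correlations across genes of 0.975 and 0.978 with the other two against 0.992 between those, and results that rest on it are given with and without it. All 12 luminal markers of LNCaP were above 1 RPKM in every library. Of 13 neuron markers, 11 stayed under 1 RPKM in all 15 libraries, the exceptions being TUBB3 and MAP2.

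The promoters of 4 of the genes are shown first, taken from both sides of the contrast of shPALI1 with shG9a. LRRN1 and CBLN2 were higher with shPALI1 than with shG9a, and TENM1 and SYP lower. EPHA7 was also higher and CHRNA2 lower in this contrast. Each sequence runs 5′ to 3′ on the strand of the gene from 250 bases before to 50 bases after a transcript start in RefSeq (build GRCh38.p14), and capitals mark every CG dinucleotide. CBLN2 is at chr18:72544293-72544592 on the minus strand, LRRN1 at chr3:3799181-3799480 on the plus strand, TENM1 at chrX:124963768-124964067 on the minus strand and SYP at chrX:49200144-49200443 on the minus strand.
CBLN2: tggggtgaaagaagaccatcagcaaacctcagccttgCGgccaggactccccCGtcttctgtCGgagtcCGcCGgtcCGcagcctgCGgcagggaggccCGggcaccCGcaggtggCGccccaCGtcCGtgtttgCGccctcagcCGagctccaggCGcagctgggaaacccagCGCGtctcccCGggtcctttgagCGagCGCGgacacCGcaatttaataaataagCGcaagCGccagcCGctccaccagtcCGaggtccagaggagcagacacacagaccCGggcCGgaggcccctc
LRRN1: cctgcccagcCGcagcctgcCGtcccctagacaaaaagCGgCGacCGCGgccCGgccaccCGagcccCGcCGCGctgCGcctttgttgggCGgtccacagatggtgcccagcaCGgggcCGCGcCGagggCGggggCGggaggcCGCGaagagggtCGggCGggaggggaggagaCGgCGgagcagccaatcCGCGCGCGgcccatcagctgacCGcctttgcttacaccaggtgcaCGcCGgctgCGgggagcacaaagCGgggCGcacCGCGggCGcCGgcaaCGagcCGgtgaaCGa
TENM1: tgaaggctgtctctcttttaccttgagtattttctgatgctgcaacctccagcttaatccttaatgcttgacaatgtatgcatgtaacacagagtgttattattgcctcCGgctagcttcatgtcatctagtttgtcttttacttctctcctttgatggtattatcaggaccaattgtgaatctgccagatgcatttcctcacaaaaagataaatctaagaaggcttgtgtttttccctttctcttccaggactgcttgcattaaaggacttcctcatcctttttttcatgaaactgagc
SYP: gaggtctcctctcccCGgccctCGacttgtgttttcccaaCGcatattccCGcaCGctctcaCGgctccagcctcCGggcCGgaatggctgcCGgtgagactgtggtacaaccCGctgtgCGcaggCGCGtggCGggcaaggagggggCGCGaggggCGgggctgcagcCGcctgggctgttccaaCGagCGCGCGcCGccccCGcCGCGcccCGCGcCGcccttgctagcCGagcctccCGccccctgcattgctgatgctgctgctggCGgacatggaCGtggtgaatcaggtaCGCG

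The 4 windows differ in their content of CG dinucleotides. LRRN1 held 42, SYP 35 and CBLN2 28, whereas this TENM1 window held 1. Over all 35116 promoter windows of the same length in the table the median was 14, with quartiles of 4 and 28, so LRRN1 had more than 94.2% of them and TENM1 more than 4.0%. TENM1 has a further RefSeq start, 240495 bases upstream of the transcript that is closest in length to the deposited gene model, and that window held 15. GRIN3A held 21 in its window, and the 3 windows of EPHA7 held 24, 24 and 21. Windows were taken for 6 of the 7 genes, and CHRNA2, for which none was taken, is named only.

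Short motifs were searched on both strands of the windows of all 6 genes. The letters GGGCGG, a core of Sp1 sites, were found for 3 of the 6 genes (LRRN1, EPHA7 and SYP) and in 45.0% of all windows. CCAAT was found for 3 (TENM1, LRRN1 and EPHA7) and in 34.6% of all windows, and TATAAA for 1 (EPHA7) and in 11.5%. Both parts of the RE1 element that the repressor REST binds, CAGCACC and GGACAG, were found for 0 of the 6 genes and in 7.75% and 20.5% of all windows. A match describes letters in a window and not a bound site, and nothing about a factor is read from it.

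CBLN2 encodes cerebellin 2, which is secreted from presynaptic terminals and bridges neurexins to glutamate receptors of the delta family. The gene lies on the minus strand of chr18:72536680-72638521 (GRCh38, GENCODE v29). Its level was 0.755, 0.412 and 0.593 RPKM in the pLKO libraries, and 11.9, 12.4 and 11.7 RPKM in shsuz12. With shPALI1 it was 7.10, 6.51 and 7.73 RPKM, with shJarid2 3.10, 4.44 and 3.64 RPKM, and with shG9a 1.93, 2.52 and 1.95 RPKM. No 2 groups overlapped, and the order was shsuz12, shPALI1, shJarid2, shG9a and pLKO. The ratio of the shsuz12 mean to the pLKO mean was 20.4. On the scale used for tests, log2(RPKM + 1), CBLN2 was higher than in pLKO by 2.36 ± 0.11 (SE) with shPALI1 (limma, adjusted p = 2.5e-09), by 1.57 ± 0.11 with shJarid2 (adjusted p = 7.4e-08) and by 0.98 ± 0.11 with shG9a (adjusted p = 1.1e-05). Differences on this scale are smaller than log2 ratios of RPKM, most of all for genes near 0. The pLKO values rest on 27, 19 and 20 reads.

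TENM1 encodes teneurin 1, a large transmembrane protein that binds latrophilins across the synaptic cleft, and lies on the minus strand of chrX:124375903-124963817. Its level was 0.540, 0.536 and 0.666 RPKM in pLKO and 10.7, 9.43 and 9.81 RPKM in shsuz12, a ratio of means of 17.2. With shG9a it was 4.02, 3.62 and 3.96 RPKM, all above every library of pLKO, shPALI1 and shJarid2. In the other two knockdowns it was close to the control: 0.573, 0.823 and 0.842 RPKM with shPALI1 and 1.21, 1.02 and 0.505 RPKM with shJarid2. These 3 groups overlapped one another. TENM1 rose by 1.62 ± 0.12 with shG9a (limma, adjusted p = 1.9e-07). The difference was 0.14 with shPALI1, with a 95% interval from -0.12 to 0.40 (adjusted p = 0.38), and 0.26 with shJarid2, with an interval from -0.01 to 0.52 (adjusted p = 0.096). Without replicate 3 of shJarid2, the low one of its group, the shJarid2 difference was 0.42 with an adjusted p of 0.0019.

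LRRN1 encodes a neuronal leucine-rich repeat membrane protein and lies on the plus strand of chr3:3799437-3847703. It was the most abundant of the 7 genes in pLKO, at 3.83, 3.84 and 4.06 RPKM, and in shsuz12, at 24.3, 25.8 and 23.9 RPKM, with a ratio of means of 6.31. It was 13.9, 13.3 and 9.96 RPKM with shJarid2 and 9.74, 9.30 and 10.1 RPKM with shPALI1. With shG9a the level was 1.40, 1.55 and 1.30 RPKM, below every pLKO library. LRRN1 thus moved both ways: it rose by 1.43 ± 0.10 with shJarid2 (adjusted p = 3.7e-08) and by 1.12 ± 0.10 with shPALI1 (adjusted p = 6.0e-07), and fell by 1.02 ± 0.10 with shG9a (limma, adjusted p = 1.6e-06). The shG9a mean was 36.2% of the pLKO mean.

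EPHA7 encodes a receptor tyrosine kinase that guides axons by binding ephrin-A ligands on other cells, and lies on the minus strand of chr6:93240020-93419547. Its level was 0.886, 0.947 and 0.630 RPKM in pLKO and 6.35, 6.81 and 6.38 RPKM in shsuz12, a ratio of 7.93. With shPALI1 it was 5.32, 6.65 and 6.27 RPKM, a range that overlapped that of shsuz12. EPHA7 was the only one of the 7 genes for which any group overlapped shsuz12. The shsuz12 libraries lay above every library of the other group for 25.1% of all tested genes against pLKO, 30% against shPALI1, 27.3% against shG9a and 26.3% against shJarid2, and nothing is read from these shares because the shsuz12 values chose the genes. It was 5.13, 6.0 and 3.33 RPKM with shJarid2, where replicate 3 was the lowest, and 1.59, 1.54 and 1.74 RPKM with shG9a. The gene rose in each of the 3 comparisons, by 1.96 ± 0.14 with shPALI1 (limma, adjusted p = 1.1e-07), by 1.65 ± 0.14 with shJarid2 (adjusted p = 3.5e-07) and by 0.53 ± 0.14 with shG9a (adjusted p = 0.0075).

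CHRNA2 encodes the alpha 2 subunit of nicotinic acetylcholine receptors and lies on the minus strand of chr8:27459761-27479883. The level was 1.85, 1.61 and 1.37 RPKM in pLKO and 15.4, 17.2 and 16.9 RPKM in shsuz12, a ratio of 10.3. With shG9a it was 4.98, 6.5 and 5.59 RPKM and with shJarid2 2.41, 2.14 and 2.37 RPKM. With shPALI1 it was 0.349, 0.518 and 0.287 RPKM, from 15, 29 and 16 reads, below every library of the other groups. No groups overlapped. CHRNA2 rose by 1.36 ± 0.10 with shG9a (limma, adjusted p = 1.5e-07) and by 0.34 ± 0.10 with shJarid2 (adjusted p = 0.0099), and fell by 0.91 ± 0.10 with shPALI1 (adjusted p = 6.4e-06). The shPALI1 mean was 23.9% of the pLKO mean and 2.33% of the shsuz12 mean.

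GRIN3A encodes an NMDA receptor subunit that lowers the calcium permeability of the channel, and lies on the minus strand of chr9:101569353-101738580. It had the lowest pLKO level of the 7 genes, 0.229, 0.250 and 0.276 RPKM from 22, 31 and 25 reads, and 5.22, 5.38 and 6.29 RPKM in shsuz12, the highest ratio at 22.3. With shJarid2 it was 2.30, 2.49 and 1.51 RPKM, between shsuz12 and the rest. With shPALI1 it was 0.682, 0.692 and 0.816 RPKM and with shG9a 0.784, 0.864 and 0.934 RPKM, and these 2 groups overlapped. GRIN3A rose by 1.29 ± 0.11 with shJarid2 (limma, adjusted p = 4.8e-07), by 0.57 ± 0.11 with shG9a (adjusted p = 0.0011) and by 0.47 ± 0.11 with shPALI1 (adjusted p = 0.0046).

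SYP, synaptophysin, lies on the minus strand of chrX:49187804-49200259. Its level was 0.632, 0.748 and 0.600 RPKM in pLKO and 4.71, 4.86 and 5.05 RPKM in shsuz12, a ratio of 7.39. It was 1.54, 1.84 and 2.15 RPKM with shG9a, above every pLKO library, and 0.740, 0.687 and 0.659 RPKM with shPALI1, within the range of pLKO. With shJarid2 it was 0.286, 0.335 and 0.528 RPKM, from only 11, 12 and 16 reads. SYP rose by 0.77 ± 0.10 with shG9a (limma, adjusted p = 2.2e-05) and fell by 0.27 ± 0.10 with shJarid2 (adjusted p = 0.032). The fall did not pass without either of 2 pLKO replicates (adjusted p = 0.0537 and 0.104 without replicates 1 and 2), without either of 2 shJarid2 replicates (0.112 and 0.0896 without replicates 1 and 2), or in a model of the 6 libraries alone (0.092). The difference with shPALI1 was 0.03, with a 95% interval from -0.18 to 0.24 (adjusted p = 0.82).

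**Figure D1:**
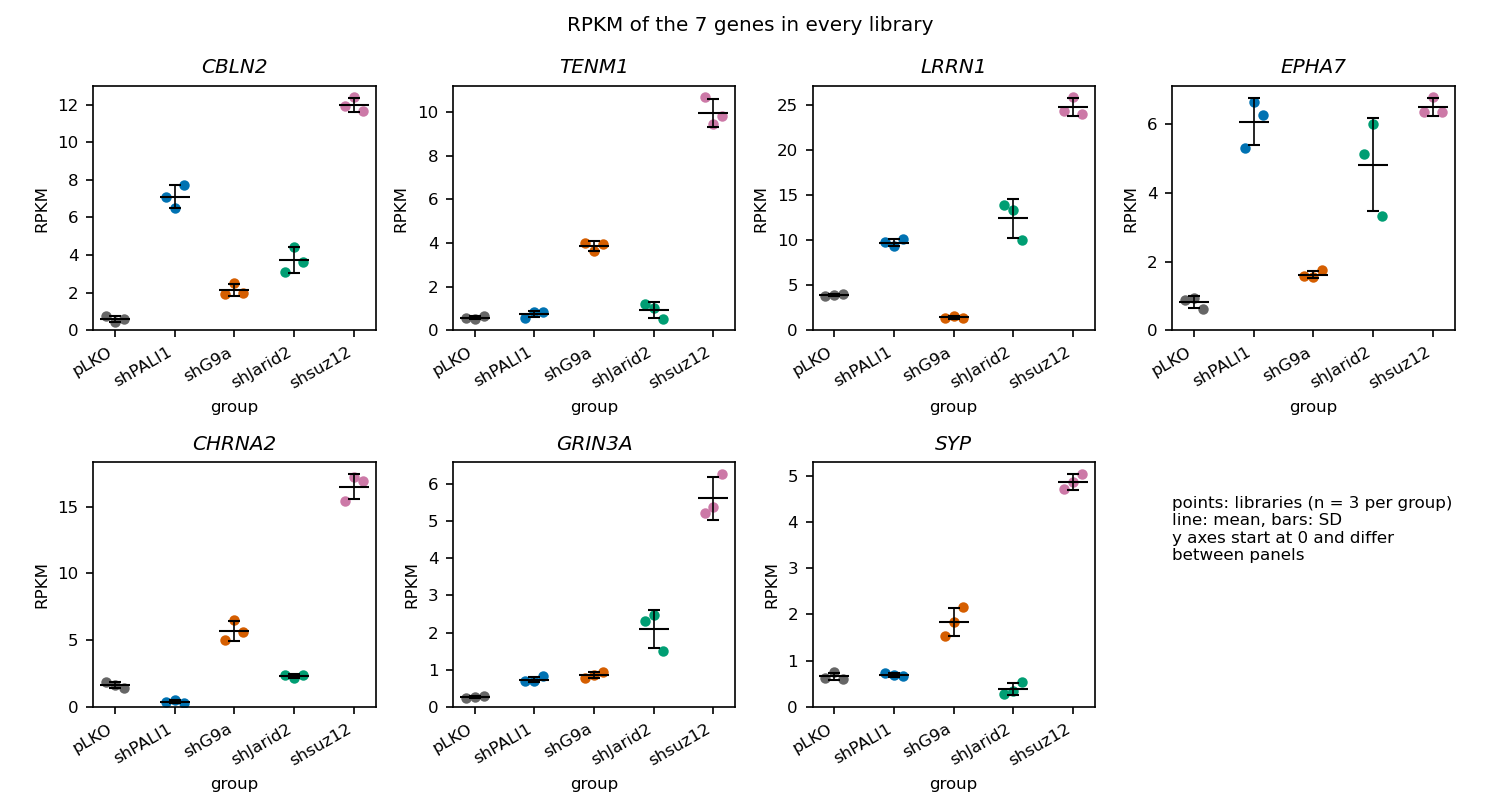
Each panel plots 1 gene, with the group on the x axis and RPKM on the y axis, which starts at 0 and differs between panels; points are libraries, horizontal lines the mean of 3 libraries and bars the SD. The shsuz12 libraries lie above all others in every panel except that of EPHA7, where 1 shPALI1 library (6.65 RPKM) lies among them.

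Set against pLKO, the 7 genes, all highest in shsuz12, did not move alike with the other hairpins. With shPALI1, 4 of 7 passed as higher (CBLN2, EPHA7, LRRN1 and GRIN3A) and 1 as lower (CHRNA2), where 41.6% of all 12715 tested genes passed, 16.5% as higher and 25.1% as lower. With shG9a, 6 passed as higher and 1, LRRN1, as lower, against 18.4% and 24.7% of all tested genes (43.1% in all). With shJarid2, 5 passed as higher and 1, SYP, as lower, against 23.8% and 27.2% (51% in all). The median difference of the 7 genes was 0.47 with shPALI1, 0.77 with shG9a and 1.29 with shJarid2, beside medians over all tested genes of -0.05, -0.04 and -0.04. CBLN2, EPHA7 and GRIN3A were the 3 genes that passed as higher with each of these hairpins. These comparisons share the pLKO libraries with one another and with the choice of the genes, which favours low pLKO values, so their counts are not independent. For the choice itself, shsuz12 against pLKO, 53.9% of all tested genes passed, 21.1% as higher and 32.8% as lower.

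All 7 genes passed the filter on low values, which asked for 3 or more libraries at or above 1 RPKM. They would also have passed on the 12 libraries outside shsuz12, GRIN3A and SYP through exactly 3 of them.

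**Figure D2:**
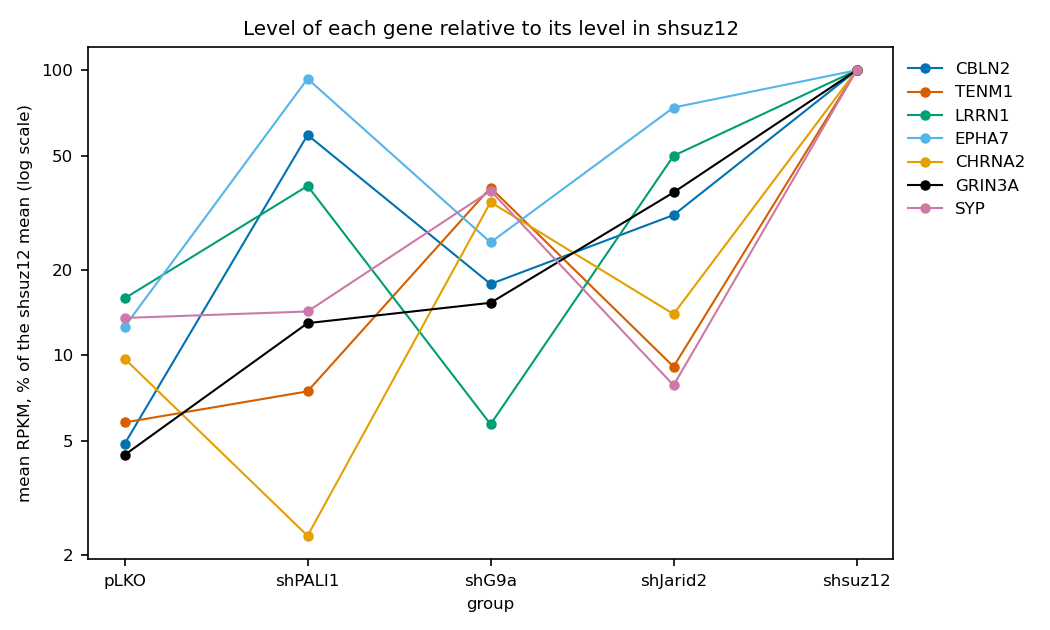
Lines join, for each gene, the mean RPKM of the 5 groups as a percent of its shsuz12 mean (y axis, log scale); the lines link groups that have no order. EPHA7 reaches 93.4% with shPALI1, CHRNA2 2.33%, and TENM1, SYP and CHRNA2 have their next highest level after shsuz12, 34.5% to 38.8%, with shG9a.

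The groups next to shsuz12 in level differed between the genes. TENM1, SYP and CHRNA2 had their next highest mean with shG9a, at 38.8%, 37.8% and 34.5% of shsuz12. CBLN2 and EPHA7 had theirs with shPALI1, at 59.3% and 93.4%, and LRRN1 and GRIN3A with shJarid2, at 50.1% and 37.3%. In pLKO the 7 genes were at 4.48% (GRIN3A) to 15.8% (LRRN1) of their shsuz12 level. These RNA levels come from whole cultures, so more RNA per cell and a larger share of cells with the RNA cannot be told apart.

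The 3 contrasts between shPALI1, shG9a and shJarid2 compare none of the libraries that chose the genes, though they share libraries with one another, and the filter and the error estimate of the model draw on all 15 libraries. With models of only the 6 libraries of a contrast, 6 of the 7 genes passed in shPALI1 against shG9a, 7 in shG9a against shJarid2 and 4 in shPALI1 against shJarid2. Between shPALI1 and shG9a the 7 genes split. CBLN2, LRRN1 and EPHA7 were higher with shPALI1, by 1.37 ± 0.11, 2.15 ± 0.10 and 1.43 ± 0.14, and TENM1, CHRNA2 and SYP were lower, with differences of -1.48 ± 0.12, -2.27 ± 0.10 and -0.74 ± 0.10. All 6 passed (limma, adjusted p from 5.4e-10 for CHRNA2 to 2.1e-05 for SYP), and in all 6 the libraries of the 2 groups did not overlap. In RPKM, CHRNA2 was 14.8 times higher with shG9a than with shPALI1, and LRRN1 6.85 times higher with shPALI1. GRIN3A differed by -0.10, with a 95% interval from -0.35 to 0.14 (adjusted p = 0.47). Over all tested genes 48.2% passed in this contrast, 24.1% as higher and 24.1% as lower, and 63.6% did not overlap between the groups.

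Between shG9a and shJarid2 all 7 genes passed, against 55.8% of all tested genes, 27.2% as higher and 28.6% as lower. TENM1, CHRNA2 and SYP were higher with shG9a, by 1.37 ± 0.12, 1.01 ± 0.10 and 1.04 ± 0.10. CBLN2, GRIN3A, LRRN1 and EPHA7 were lower, with differences of -0.59 ± 0.11, -0.72 ± 0.11, -2.46 ± 0.10 and -1.12 ± 0.14 (limma, adjusted p from 2.0e-10 for LRRN1 to 0.00056 for CBLN2). The groups overlapped for 0 of the 7 genes, where 59.1% of all tested genes did not overlap. The 7 calls also passed without replicate 3 of shJarid2.

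Between shPALI1 and shJarid2 5 of 7 genes passed, against 62.3% of all tested genes, 30.5% as higher and 31.8% as lower. CBLN2 was higher with shPALI1 by 0.79 ± 0.11 (adjusted p = 3.4e-05) and SYP by 0.30 ± 0.10 (adjusted p = 0.015). CHRNA2, GRIN3A and LRRN1 were lower, with differences of -1.26 ± 0.10 (adjusted p = 8.4e-08), -0.83 ± 0.11 (adjusted p = 2.1e-05) and -0.31 ± 0.10 (limma, adjusted p = 0.012), and the LRRN1 libraries overlapped. In all, 4 of the 7 genes did not overlap between these groups, beside 62.5% of all tested genes. EPHA7 differed by 0.31, with a 95% interval from 0.01 to 0.61 (adjusted p = 0.072), and TENM1 by -0.12, with an interval from -0.38 to 0.15 (adjusted p = 0.43). Without replicate 3 of shJarid2, TENM1 passed at -0.28 (adjusted p = 0.020), LRRN1 differed by -0.45 (adjusted p = 3.9e-05) and EPHA7 by 0.11 (adjusted p = 0.37). Without replicate 1 of shJarid2, 3 of the 7 passed, and LRRN1 (adjusted p = 0.0601) and SYP (adjusted p = 0.0609) did not.

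**Figure D3:**
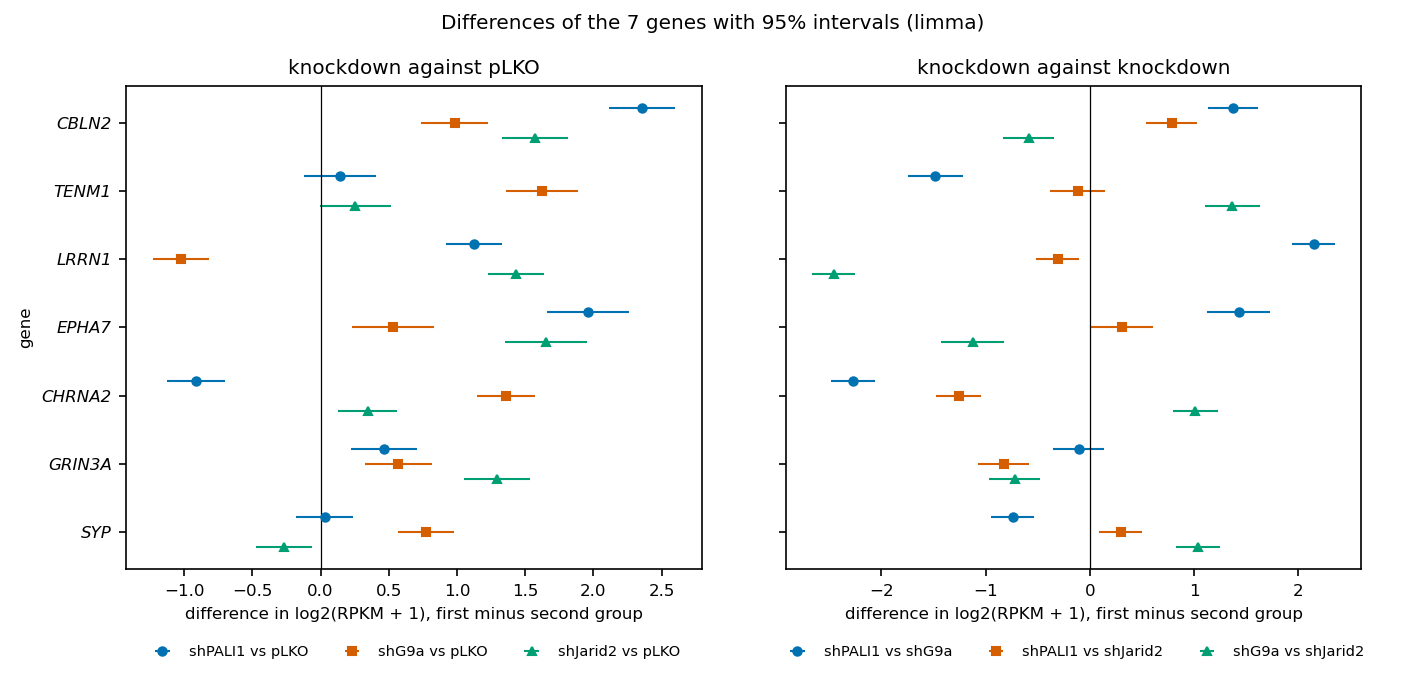
Points are differences in log2(RPKM + 1) (x axis) for each gene (y axis) and bars their 95% intervals from limma, unadjusted; the left panel holds 3 knockdowns against pLKO and the right panel the contrasts between those knockdowns. LRRN1 lies at -1.02 with shG9a and at 1.12 and 1.43 with shPALI1 and shJarid2, and CHRNA2 at -0.91 with shPALI1 and 1.36 with shG9a.

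The relatives and partners of the 7 genes were taken from 11 lists, called neuronal here. They gave 163 further genes in the table, of which 50 passed the filter on low values. The lists hold whole gene families, so not every gene is particular to neurons. Among them, SYPL1 and SYNGR2 averaged 49.0 and 156 RPKM in pLKO. Of the 50, 8 were Eph receptors and 7 ephrins, and 6 and 3 of these passed as higher in shsuz12. In shsuz12 against pLKO, 29 of the 50 (58.0%) passed as higher and 8 (16.0%) as lower, beside 21.1% and 32.8% of all tested genes. The median difference was 0.32 beside -0.08 over all tested genes. The lists were drawn up with earlier results of these data known, and hold relatives of genes chosen on shsuz12. These shares are therefore a description and no independent support. With shPALI1, 13 (26%) passed as higher and 16 (32%) as lower, beside 16.5% and 25.1% of all tested genes. With shG9a, 14 (28%) and 9 (18%) passed, beside 18.4% and 24.7%. With shJarid2, 15 (30%) and 10 (20%) passed, beside 23.8% and 27.2%. The medians were 0.00, 0.08 and -0.02. Of the 50, FLRT1, LRRTM4, BSN, PCLO and POU4F1 passed the filter only through shsuz12, the group where they were high, so their difference from pLKO is no evidence. Without them, a restriction chosen after seeing the data, 24 of 45 were higher (53.3%) and 8 lower, where 20.5% and 33.4% of 12489 genes passed. With only genes of a mean RPKM of at least 3, 16 of 28 were higher (57.1%) and 3 lower (10.7%), where 20.5% and 37.7% of 9619 genes passed. The counts in shsuz12 for single lists below leave out the same genes, and stand beside 21.1% higher and 32.8% lower over all tested genes.

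**Figure D4:**
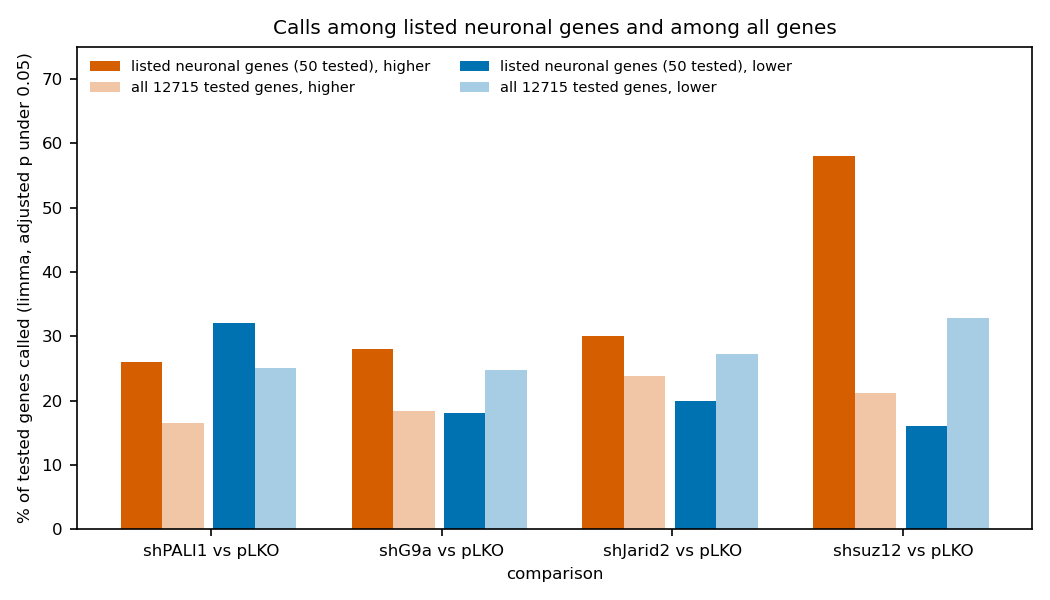
Bars give the percent of genes (y axis, from 0) that passed as higher or lower in each knockdown against pLKO (x axis). They cover 50 tested genes of the neuronal lists outside the 7, and all 12715 tested genes. The lists were drawn up with earlier results of these data known. With shsuz12, 58.0% of the listed genes passed as higher (53.3% without genes that passed the filter only through shsuz12) beside 21.1% of all tested genes.

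Secreted organisers and contact proteins came first in the lists. Among the 14 other cerebellins and partners, 2 passed the filter. NEO1, a receptor for netrins and for cerebellins, rose from 9.67 ± 0.37 to 19.8 ± 1.5 RPKM (SD, n = 3) in shsuz12 (limma, adjusted p = 2.7e-06), and C1QL4 fell (adjusted p = 0.0043). Of 4 relatives and partners of TENM1, 3 were higher in shsuz12 and 0 lower. TENM2 went from 0.309 ± 0.056 to 1.73 ± 0.06 RPKM (adjusted p = 3.8e-07), TENM4 from 0.187 ± 0.032 to 1.02 ± 0.09 RPKM (adjusted p = 5.9e-06), and the latrophilin ADGRL1 from 31.4 ± 2.2 to 38.2 ± 1.8 RPKM (adjusted p = 0.0016). Both genes were at 2.98 and 1.43 RPKM with shPALI1, where both passed as higher, and at 0.299 and 0.353 RPKM with shG9a, where neither passed (adjusted p = 0.93 and 0.098), unlike TENM1. With shJarid2, neither of them (adjusted p = 0.54 and 0.11) nor TENM1 passed.

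Of 3 leucine-rich repeat proteins other than LRRN1, 2 were higher in shsuz12. LRRTM3, a postsynaptic protein that binds presynaptic partners, was at 0.146 ± 0.051 RPKM in pLKO and 1.51 ± 0.24 RPKM in shsuz12 (limma, adjusted p = 9.7e-07). Its relative LRRTM4, which passed the filter only through shsuz12, was at 0.148 ± 0.042 and 1.57 ± 0.08 RPKM. SLITRK6 was at 1.15 ± 0.28 and 1.68 ± 0.11 RPKM (adjusted p = 0.027), and reached 5.72 RPKM with shPALI1 and 5.41 RPKM with shG9a. LRRTM3 also passed as higher with shPALI1, at 1.52 RPKM (adjusted p = 1.5e-06), and shJarid2, at 0.418 RPKM (adjusted p = 0.026). It did not pass with shG9a (adjusted p = 0.13).

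Eph receptors other than EPHA7 gave 6 higher and 0 lower of 8 tested in shsuz12. With shPALI1, 3 were higher and 4 lower, beside 16.5% and 25.1% of all tested genes. EPHA6 rose from 6.05 ± 0.12 to 19.6 ± 0.6 RPKM (limma, adjusted p = 5.3e-07) and EPHA3 from 0.933 ± 0.031 to 3.88 ± 0.25 RPKM (adjusted p = 1.5e-06). With shPALI1 they were at 17.2 and 3.96 RPKM, both called higher, as EPHA7 was. EPHB3 rose from 4.54 ± 0.20 to 8.58 ± 0.14 RPKM in shsuz12 (adjusted p = 3.1e-06) and was lower than pLKO with shPALI1, at 2.25 RPKM (adjusted p = 6.4e-06). Of 7 tested ephrins, the ligands of these receptors, 3 were higher and 2 lower in shsuz12. EFNA5 and EFNA1 rose to 57.0 ± 2.4 and 75.6 ± 8.0 RPKM from 36.6 ± 0.4 and 42.0 ± 0.9 RPKM, and EFNB2 fell from 42.3 ± 2.4 to 29.1 ± 1.2 RPKM (adjusted p = 3.4e-06, 1.1e-05 and 0.00021). EFNA1 also passed as higher with shJarid2, at 80.1 RPKM (adjusted p = 5.1e-06), and shG9a, at 75.9 RPKM (adjusted p = 1.7e-05). With shPALI1 it passed as lower, at 30.8 RPKM (adjusted p = 0.0033).

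The channel subunits gave few values, because 1 of 15 other nicotinic subunits and 3 of 15 other ionotropic glutamate receptor subunits passed the filter. CHRNA5 fell in shsuz12, from 3.67 ± 0.63 to 2.16 ± 0.03 RPKM (limma, adjusted p = 0.00025), the reverse of CHRNA2. It also fell with shG9a, to 1.60 RPKM (adjusted p = 1.1e-05). GRIK2, a kainate receptor subunit, rose from 0.642 ± 0.031 to 2.29 ± 0.25 RPKM in shsuz12 (adjusted p = 6.3e-05), and GRIK5 fell from 1.46 ± 0.21 to 0.822 ± 0.192 RPKM (adjusted p = 0.0031). GRIN1, the subunit every NMDA receptor needs, was at 2.76 ± 0.36 RPKM in pLKO and 2.21 ± 0.44 RPKM in shsuz12 (adjusted p = 0.070), and at 6.67 RPKM with shG9a, where it passed as higher (adjusted p = 2.8e-06).

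Of the other 7 members of the synaptophysin family, 4 were tested, with 1 higher and 2 lower in shsuz12. SYPL1, a relative of SYP found outside neurons, fell from 49.0 ± 3.1 to 32.1 ± 2.1 RPKM (limma, adjusted p = 1.5e-05), and SYNGR3 fell as well (adjusted p = 0.036), whereas SYNGR2 rose from 156 ± 18 to 212 ± 22 RPKM (adjusted p = 0.0084). Among 9 genes of vesicles and transmitter release, 5 were higher and 1 lower. SYT4, a synaptotagmin, rose from 204 ± 23 to 442 ± 13 RPKM (adjusted p = 1.3e-07). PCLO, which encodes the active zone protein piccolo and passed the filter only through shsuz12, was at 0.398 ± 0.057 and 1.72 ± 0.09 RPKM. VAMP2, a vesicle SNARE, fell from 20.1 ± 1.2 to 11.7 ± 0.2 RPKM (adjusted p = 2.0e-06). SYT4 also passed as higher with shJarid2, at 547 RPKM (adjusted p = 1.5e-08), and shPALI1, at 325 RPKM (adjusted p = 2.6e-05). It did not pass with shG9a (adjusted p = 0.79). SYNGR2 also passed as higher with shJarid2, at 293 RPKM (adjusted p = 3.7e-05), and shG9a, at 198 RPKM (adjusted p = 0.040). With shPALI1 it passed as lower, at 108 RPKM (adjusted p = 0.0039).

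Neuroendocrine genes, the company in which SYP is read in prostate tumours, gave 2 tested genes of 16. DDC, a decarboxylase of monoamine synthesis, rose from 50.6 ± 5.7 to 88.2 ± 5.7 RPKM in shsuz12 (limma, adjusted p = 7.3e-05), and ENO2 was at 8.55 ± 1.12 and 8.70 ± 0.58 RPKM (adjusted p = 0.90). Of 20 neuronal transcription factors, 2 were left to count, and MYT1 rose, from 1.01 ± 0.05 to 1.98 ± 0.20 RPKM (adjusted p = 4.3e-05). POU4F1, which passed the filter only through shsuz12, was at 0.486 ± 0.198 and 1.20 ± 0.07 RPKM. LHX2 was at 2.21 ± 0.41 and 1.81 ± 0.35 RPKM (adjusted p = 0.19). DDC also passed as higher with shG9a, at 80.2 RPKM (adjusted p = 0.00053), and shJarid2, at 80.0 RPKM (adjusted p = 0.00049). With shPALI1 it was at 58.7 RPKM and did not pass (adjusted p = 0.17).

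Levels of the repressors themselves were read beside those of the 7 genes. REST averaged 7.64 ± 0.46 RPKM in pLKO and 6.63 ± 0.71 RPKM in shsuz12, and 10.2 ± 0.2 RPKM with shG9a. Of 11 genes of the REST repressor complex, 0 were higher and 3 lower in shsuz12, close to the share of genes that were lower over the whole table (32.8%). The 3 were KDM1A, a histone demethylase (44.0 ± 3.8 to 30.7 ± 1.2 RPKM, limma, adjusted p = 2.1e-05), EHMT2 (3.72 ± 0.39 to 2.99 ± 0.06 RPKM, adjusted p = 0.015) and HDAC2 (26.8 ± 2.1 to 22.9 ± 0.3 RPKM, adjusted p = 0.016). Of 6 PRC2 core genes, 1 was higher and 4 lower in shsuz12, among them SUZ12 itself. EZH2, the methyltransferase, was at 64.7% of pLKO in shsuz12 (adjusted p = 2.6e-06) and 67.3% in shJarid2 (adjusted p = 6.5e-06), and RBBP7 fell to 34.7 ± 1.5 from 48.7 ± 3.3 RPKM in shsuz12 (adjusted p = 2.0e-05).

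Markers of other cell types moved with the groups to some extent. The summed RPKM of the 13 neuron markers was 12.7 to 15.9 in pLKO, 52.1 to 58.1 with shPALI1, 40.4 to 44.8 with shG9a, 8.52 to 9.88 with shJarid2 and 35.7 to 40.0 in shsuz12, and 0 of the 13 were at 0 in all libraries. TUBB3 carried most of each sum, with means of 11.6 RPKM in pLKO, 50.8 with shPALI1, 40.8 with shG9a, 5.46 with shJarid2 and 30.8 in shsuz12. MAP2 was at 1.69 RPKM in pLKO, 4.06 with shPALI1 and 6.32 in shsuz12. With shG9a, MAP2 was at 1.01 RPKM and passed as lower (limma, adjusted p = 0.0088), the reverse of TUBB3. With shJarid2, 1 of these 2 markers passed as higher, MAP2, and 1 as lower, TUBB3, so the lower sum there follows TUBB3. The sum of the 12 luminal markers was 2296 to 2503 in pLKO, 984 to 1106 with shPALI1, 1173 to 1230 with shG9a, 2020 to 2255 with shJarid2 and 1472 to 1554 in shsuz12. KLK3 alone averaged 1108 RPKM in pLKO, so the sum mostly follows the most abundant markers. Of the 12 markers, 9 passed as lower and 1 as higher in shsuz12. With shPALI1, 10 passed as lower and 0 as higher, and with shG9a 9 and 1. With shJarid2, 3 passed as lower and 7 as higher, although the sum was below that of pLKO. Glial markers summed to 5.18 to 13.4 over all libraries, with 8 of 9 under 1 RPKM throughout. Immune, fibroblast and endothelial markers summed to at most 4.94, 6.18 and 2.51, with 6 of 7, 4 of 7 and 4 of 5 under 1 RPKM throughout. MOG of oligodendrocytes and CD3E of T cells were listed at 0 in all 15 libraries. The part of any of these in the levels of the 7 genes was not tested.

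For each of the 7 genes, the other tested genes whose log2(RPKM + 1) followed it most closely over the 15 libraries are named as a description; the libraries share their groups, so these correlations largely restate the order of 5 group means. EPHA6 (r = 0.943) and H6PD (0.940) came closest to CBLN2, MLXIP (0.985) and ADCY9 (0.979) to TENM1, and RAP2C (0.962) and CROT (0.949) to LRRN1. GRIK2 (0.955) and MID1 (0.953) came closest to EPHA7, and LAPTM4A (0.975) and APH1B (0.966) to CHRNA2. CABLES2 (0.958) and CSMD1 (0.958) were nearest to GRIN3A, and TMEM43 (0.979) and KIAA1324 (0.977) to SYP. MID1, like EPHA7, was higher on average with shPALI1, shJarid2 and shsuz12 than in pLKO, but unlike EPHA7 it was highest with shPALI1 and near pLKO with shG9a, with means of 0.166 RPKM in pLKO, 1.70 with shPALI1, 0.170 with shG9a, 1.04 with shJarid2 and 1.22 in shsuz12. KIAA1324 had, like SYP, its highest mean in shsuz12 (7.35 RPKM) and its next highest with shG9a (2.04 RPKM), and was at 1.10 RPKM in pLKO.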

How the data were processed

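RNA sequencing of 15 LNCaP libraries in 5 groups of 3 was read from 1 table of RPKM values that the authors deposited. Per the submitters' processing notes, STAR and hg38 were used; its version, the read counter, the annotation and any strand setting were not given in the sources used here, so reads of a gene and an overlapping antisense gene cannot be told apart. Per the labels' protocols, a NEBNext Ultra kit was used. Of 26475 gene names, 26443 carried values. Depth (10.56 to 19.36 M reads) was recovered from the size of 1 read in short RNA genes, and whole reads, within 0.02 of a read, for every named member and 99.9% of tested genes.

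Values were analysed as log2(RPKM + 1) for the 12715 genes that reached 1 RPKM in 3 or more libraries. One limma 3.58.1 model with a mean-variance trend (R 4.3.3), with group as its term, covered the 15 libraries. Tests were two-sided, and adjusted p-values are Benjamini-Hochberg values over all tested genes within a comparison, called at 0.05. The procedure was tested on simulated data in which far fewer genes changed than passed here, so nothing about error rates in these data is read from it. The 7 genes and all lists were chosen with earlier results of these data known. Named by rule were the 7 genes, the targeted genes, the 2 genes most correlated with each of the 7, and up to 3 genes per list with the smallest p in shsuz12 against pLKO; others of the lists are in counts, and marker genes and MID1 and KIAA1324 levels were picked out after their values were seen. The alternatives tried were other pseudocounts (0.1 and 0.5), no filter or a filter on a mean of 3 RPKM, scaling by median ratios or to a common sum, the 6 libraries of a comparison, a replicate block and each library left out. A limma-voom fit to the recovered reads and the restriction to genes that pass on the 12 libraries outside shsuz12 were added after seeing the data. Promoter windows came from RefSeq (GRCh38.p14) and gene locations from GENCODE v29. Tables were prepared with Python 3.11.15, pandas 2.3.3 and numpy 2.4.6, and figures with matplotlib 3.10.9.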

Additional observations from a re-analysis of the deposited data

How the results depend on the processing

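No direction turned under any alternative run. Of the values of the 7 genes under the alternatives, 602 kept their side of the threshold, 10 no longer passed and 6 newly passed. The number of the 7 genes called in shPALI1 against shJarid2 was 5, and 3 with a filter on mean RPKM of at least 3, which leaves fewer of the 7 genes tested; with single libraries left out it lay between 3 and 6, with 3 without replicate 1 of shJarid2. The listed neuronal genes higher in shsuz12 fell from 29 to 16, and those lower from 8 to 3, with the same filter, which tests fewer genes. LRRN1 in shPALI1 against shJarid2 no longer passed after rescaling to a common sum (adjusted p = 0.0989), with the 6 libraries alone (0.0767) or without replicate 2 of shJarid2 (0.0532). EPHA7 in that contrast passed with voom on recovered reads (adjusted p = 0.0449) and without replicate 1 of shPALI1 (0.0478) or replicate 2 of shJarid2 (0.0110), and TENM1 in shJarid2 against pLKO passed with voom (0.0453). The causes of these changes were not tested. The labels number the replicates but do not say that a number marks a shared batch, and 0 of the comparisons had all 3 same-numbered pairs correlated above 0.1 (deviations from group means, r from -0.271 to 0.127). Pairs above 0.1 numbered 2 in shPALI1 against pLKO and 1 in shJarid2 against pLKO. The 3 deviations of a group are not independent, so nothing about a batch is read from these values. With the replicate block, the counts of the 7 genes called were 5, 7 and 6 for shPALI1, shG9a and shJarid2 against pLKO and 6, 5 and 7 for shPALI1 against shG9a, shPALI1 against shJarid2 and shG9a against shJarid2, as without it, and 27 listed neuronal genes were higher in shsuz12. Depth limits the low values: the smallest counts were 11, 12 and 16 reads for SYP in shJarid2 and 15, 16 and 29 for CHRNA2 in shPALI1.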
